A study of Mus musculus with 6 samples.

Results

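Transcripts of 9 genes that mark microglia were examined in bulk RNA-seq of the cerebellum from 6 mice at 2 months of age. The genes were chosen by symbol. They were *Tmem119*, *Siglech*, *Gpr34*, *Selplg*, *Cx3cr1*, *Olfml3*, *Csf1r*, *Aif1* and *Adgre1*, and each matched 1 of the 53746 genes in the deposited count table. All 9 passed the filter on low counts, but *Aif1* and *Adgre1* passed it only through their counts in Pcp2-cre mice, defined below. The 3 N153SLSL/LSLPcp2-cre mice, called Pcp2-cre mice here, were homozygous for a knockin of the constitutively active STING mutant N153S behind a LoxP-Stop-LoxP cassette and also carried *Pcp2-cre*, a transgene that drives Cre in Purkinje cells. The 3 control mice were N153SLSL/LSL, so they carried the same homozygous cassette without Cre. Mice 1 and 2 of each genotype were male and mouse 3 was female. Each library was made from the RNA of a whole cerebellum of 1 perfused mouse, so more cells of a type and more RNA per cell cannot be told apart.

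Microglia are the resident macrophages of the brain. In the healthy brain they express a set of surface receptors and secreted proteins, called homeostatic genes, through which they sense neurons and other cells. *Tmem119*, *Siglech*, *Gpr34*, *Selplg*, *Cx3cr1* and *Olfml3* are commonly used homeostatic markers, whereas *Csf1r*, *Aif1* and *Adgre1* are shared by microglia and other macrophages. Homeostatic genes are known to fall in microglia that take on a phagocytic state after injury, while the shared macrophage genes are often kept. In the cerebellum microglia are sparse compared with the forebrain.

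The total count per mouse lay between 6733178 and 10178218, and 3 counts, used here as the floor of detection, came to 0.297 to 0.447 CPM (counts scaled to the size of the library). That floor covers counting error only. Control mice 1 and 2 stood apart from the other 4 libraries in choroid plexus transcripts, the genes of the tissue that secretes cerebrospinal fluid, with a summed level of 825 and 1270 CPM over 10 markers against 25.7 to 91.3 CPM in the other 4 mice. *Sting1*, the engineered gene, was at 23.2 to 27.2 CPM in controls and 34.2 to 44.4 CPM in Pcp2-cre mice. The counts do not show in which cells it was transcribed.

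Of the 9 genes 7 were called upregulated in Pcp2-cre cerebella and 0 downregulated. Calls required an adjusted p of 0.05 or less (edgeR's quasi-likelihood test, Benjamini-Hochberg adjustment over all genes tested) together with a change of 0.5 or more, up or down, on the log2 scale. By this rule 1.37% of all 16961 genes tested were upregulated and 1.79% downregulated. With any fold change admitted the 9 genes again gave 7 higher and 0 lower, beside 2.99% and 4.75% of all genes. With a change of 1 or more required 5 remained, beside 0.837%, and *Csf1r* and *Selplg* were the genes no longer called. The genes that rose were *Csf1r*, *Cx3cr1*, *Gpr34*, *Selplg*, *Adgre1*, *Olfml3* and *Aif1*, with fold changes between 1.77 and 3.83. Of these, *Aif1* and *Adgre1* entered the test only through the group where they were high. Both were also called when no filter on low counts was used. *Tmem119* and *Siglech* were not called. The 9 genes had a median of 1.06 on the log2 scale, beside 0.005 over all tested genes. Without control mice 1 and 2 the median was 0.99, but the lone control was then assumed to vary like the Pcp2-cre mice, which alone gave the spread. After a choroid plexus score was added as a covariate 7 of the 9 genes were called and the median was 0.98. Over all 16961 genes 187 were called upregulated in that fit. That score was 2.13 and 2.63 in control mice 1 and 2, against -1.58 to -0.60 in the other mice. This fit thus leans on control mouse 3. Compared within sex, the 7 called genes were higher in Pcp2-cre mice by 0.88 to 1.97 on the log2(CPM + 0.5) scale among the males. In the female pair they were higher by 0.47 to 1.65. Control mice 1 and 2 were the only male controls, so among males genotype and choroid plexus content cannot be told apart.

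**Figure D1:**
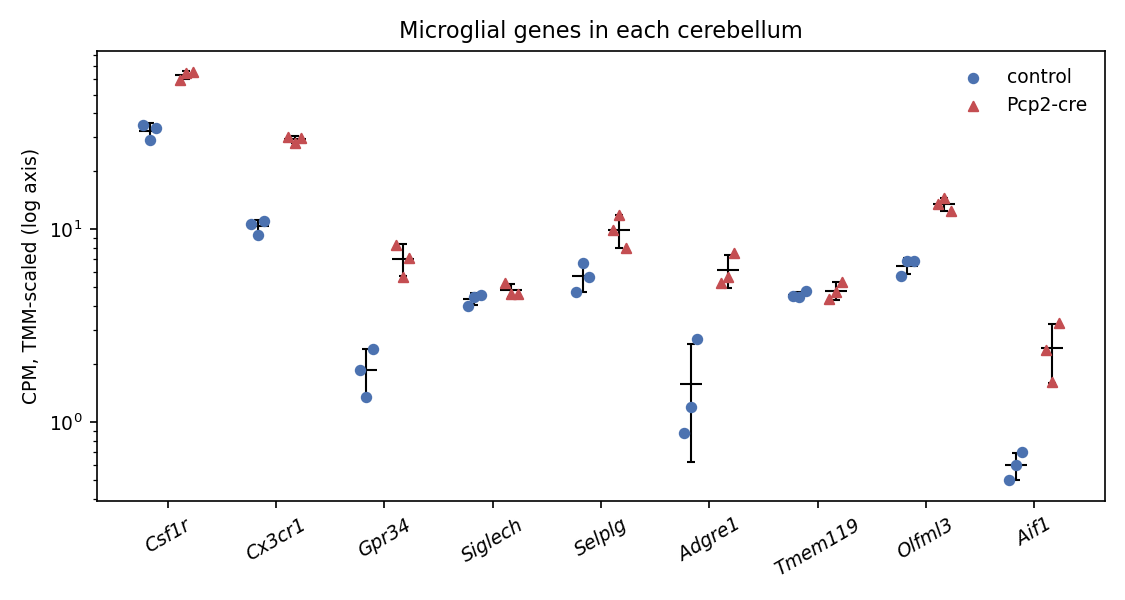
CPM of each of the 9 genes in each cerebellum on a log axis, with control mice as circles and Pcp2-cre mice as triangles (3 mice each). Horizontal marks are means and bars are SD. All 3 triangles lie above all 3 circles for 8 of the 9 genes, but for *Siglech* the gap between the groups is narrow, from 4.56 to 4.59 CPM.

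The growth factor, chemokine and lipid receptors all rose. *Csf1r* encodes the receptor for CSF1 and IL-34, on which microglia depend for survival. It lies on chromosome 18 of GRCm39 from 61229714 to 61266535, between *Pdgfrb* and *Slc26a2*. Control mice 1, 2 and 3 had 278, 194 and 338 counts, and Pcp2-cre mice 1, 2 and 3 had 453, 560 and 440. After scaling it had 32.4 ± 3.06 CPM without Cre and 63.1 ± 3.01 CPM with it (SD, n = 3 mice each). The genotypes were far apart relative to the spread within each. The rise was 0.96 ± 0.073 on the log2 scale (± standard error, edgeR adjusted p = 6.79e-09). Exons of *Csf1r* share 1461 bp with *Hmgxb3* on the opposite strand, and the use of strand in the counting is not given in the sources used here. *Hmgxb3* itself had 52.8 ± 3.86 and 51.7 ± 0.787 CPM (SD, n = 3 mice each). The pseudogene *Csf1r-ps* had at most 5 counts in a mouse. Smaller opposite-strand overlaps were found for exons of *Selplg* (541 bp), *Olfml3* (124 bp) and *Cx3cr1* (78 bp). The genes that overlap *Selplg* and *Olfml3* were not among the genes counted, so their level could not be compared.

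*Cx3cr1* encodes the receptor for fractalkine, a chemokine that neurons present on their surface. It lies on chromosome 9 from 119877749 to 119898945, between *Xirp1* and *Ccr8*. Controls had 86, 63 and 111 counts, against 229, 242 and 202 with Cre. The genotypes were far apart, with 10.4 ± 0.866 CPM without Cre and 29.3 ± 1.21 CPM with it (SD, n = 3 mice each). It rose by 1.48 ± 0.0995 on the log2 scale (± standard error, edgeR adjusted p = 1.12e-09), the smallest p of the 9 genes.

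*Gpr34* encodes a receptor for lysophosphatidylserine, a signalling lipid. The gene lies on chromosome X from 13489625 to 13507116, inside the gene *Cask* and next to *Gpr82*. Its counts were 15, 9 and 24 in controls, against 63, 49 and 48 with Cre. No control library reached the level of any Pcp2-cre library, with a highest control value of 2.38 CPM and a lowest Pcp2-cre value of 5.66 CPM. The rise was 1.85 ± 0.238 on the log2 scale (± standard error, edgeR adjusted p = 1.26e-05).

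The surface lectins, adhesion proteins and their kin did not move alike. *Adgre1* encodes F4/80, an adhesion G protein-coupled receptor that is a classical macrophage marker, and lies on chromosome 17 from 57665573 to 57790527, between *Vav1* and *Vmn2r120*. It had 7, 8 and 27 counts in controls, against 40, 49 and 51 with Cre. Control mouse 3 was well above the other controls, at 2.68 CPM against 0.873 and 1.19 CPM, and still below the lowest Pcp2-cre mouse at 5.27 CPM. It rose by 1.86 ± 0.29 on the log2 scale (± standard error, edgeR adjusted p = 0.000149). Without control mouse 3 the rise was 2.56. Without control mice 1 and 2 the log2 difference was 1.18, a value that rests on 1 control.

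*Selplg* encodes PSGL-1, the P-selectin ligand of leukocytes, and lies on chromosome 5 from 113956597 to 113970705. Controls had 38, 45 and 57 counts, against 75, 103 and 54 with Cre. The groups did not overlap, with 5.70 ± 0.981 CPM without Cre and 9.92 ± 1.95 CPM with it (SD, n = 3 mice each), and Pcp2-cre mouse 3 was the lowest of its group. The rise was 0.82 ± 0.177 on the log2 scale (± standard error, edgeR adjusted p = 0.00381). Without Pcp2-cre mouse 2 it was 0.66 with an edgeR adjusted p of 0.0746, no longer called.

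*Siglech* encodes a sialic acid-binding lectin that signals through the adaptor TYROBP. It lies on chromosome 7 from 55417926 to 55429195, between *Luzp2* and *Tubgcp5*. Controls had 32, 30 and 46 counts, against 40, 40 and 31 with Cre. The level was 4.34 ± 0.304 CPM without Cre and 4.82 ± 0.385 CPM with it (SD, n = 3 mice each), so the means differed by little more than the spread within a genotype. The log2 difference was 0.15, its 95% interval ran from -0.25 to 0.55, and the edgeR adjusted p was 0.766.

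Of the remaining genes, *Aif1* and *Olfml3* rose and *Tmem119* did not pass the test. *Aif1* encodes IBA1, the actin-binding protein used to stain microglia in tissue sections, and lies on chromosome 17 from 35387384 to 35395053, between *Prrc2a* and *Lst1*. It had the fewest counts of the 9 genes in control cerebella, 4, 4 and 7, against 18, 14 and 22 with Cre. The groups did not overlap, but the control counts were close to the floor of 3. It rose by 1.94 ± 0.38 on the log2 scale (± standard error, edgeR adjusted p = 0.00164). Its 95% interval ran from 1.14 to 2.73, the widest of the 9. Without control mice 1 and 2 the edgeR adjusted p was 0.0531, at a log2 difference of 1.74, with the spread taken from the Pcp2-cre mice alone. Exons of *Aif1* share 703 bp with the opposite-strand gene *Gm17705*, which had 1.22 ± 0.541 and 1.40 ± 0.361 CPM (SD, n = 3 mice each).

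*Olfml3* encodes a secreted glycoprotein of the olfactomedin family and lies on chromosome 3 from 103629538 to 103645322, next to *Hipk1*. It had 46, 46 and 69 counts in controls, against 103, 126 and 84 with Cre. Its lowest Pcp2-cre value, 12.4 CPM, was well above its highest control value, 6.85 CPM. The rise was 1.06 ± 0.139 on the log2 scale (± standard error, edgeR adjusted p = 1.58e-05).

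*Tmem119* encodes a transmembrane protein that separates microglia from most other macrophages, and lies on chromosome 5 from 113931781 to 113938577. Controls had 36, 30 and 48 counts, against 33, 41 and 36 with Cre. In CPM the genotypes overlapped, and Pcp2-cre mouse 1 was the lowest of all 6 mice at 4.35 CPM. The log2 difference was 0.06, with a 95% interval from -0.33 to 0.46. The upper bounds of *Tmem119* and *Siglech* lay below the lower bounds of *Csf1r* (0.80), *Olfml3* (0.77), *Cx3cr1* (1.28), *Gpr34* (1.36), *Aif1* (1.14) and *Adgre1* (1.25). The interval of *Selplg*, from 0.45 to 1.19, overlapped both. At these counts a change of *Tmem119* or *Siglech* within its interval was not detectable.

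**Figure D2:**
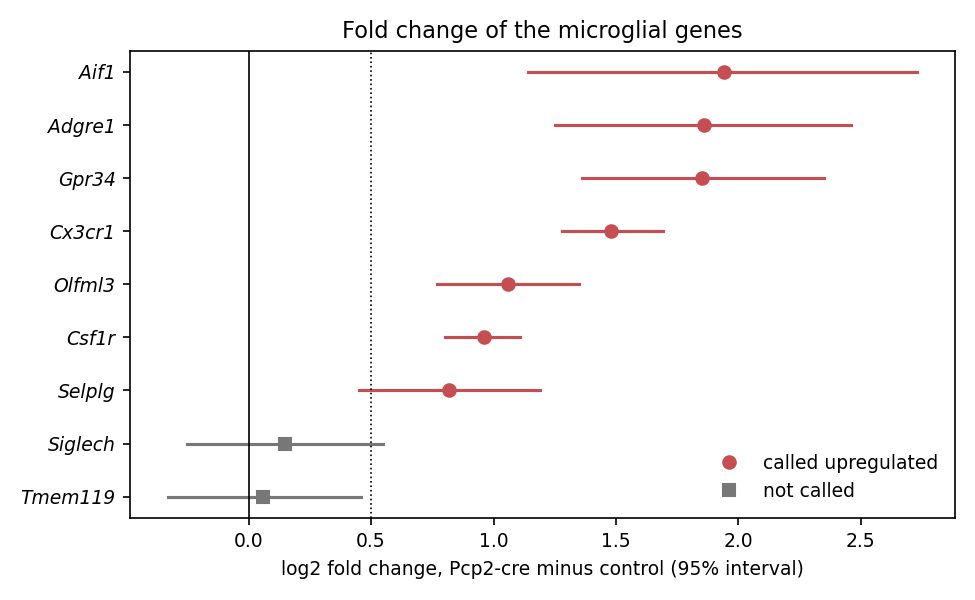
Log2 fold change of the 9 genes between Pcp2-cre and control cerebella (points) with 95% intervals from edgeR's quasi-likelihood fit (bars), in order of size. The dotted line marks the calling threshold of 0.5, and the intervals of *Tmem119* and *Siglech* include 0.

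*Tmem119* and *Selplg* are neighbours, 18020 bp apart and on the same strand of chromosome 5, with no protein-coding gene between them. The log2 ratio of *Selplg* to *Tmem119* counts in control mice 1, 2 and 3 was 0.077, 0.577 and 0.246. In Pcp2-cre mice 1, 2 and 3 it was 1.172, 1.318 and 0.578. All 3 Pcp2-cre values were thus above all 3 controls, but Pcp2-cre mouse 3 and control mouse 2 had almost the same ratio (exact two-sided permutation p = 0.10, the smallest that 3 mice against 3 allow). This pair was chosen after the values had been seen.

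Ratios to *Csf1r* within each library, which do not depend on how libraries are scaled, were used to compare the genes with each other. *Tmem119* had a log2 ratio of -2.93, -2.67 and -2.80 in controls, against -3.76, -3.76 and -3.59 with Cre. *Siglech* had -3.10, -2.67 and -2.86 in controls, against -3.49, -3.79 and -3.81 with Cre. Both were lower relative to *Csf1r* in every Pcp2-cre mouse, by 0.90 and 0.82 on average. The same was true of 93.7% of all tested genes, because *Csf1r* itself rose. *Selplg* and *Olfml3* overlapped between genotypes, with mean differences of -0.18 and 0.09. *Cx3cr1*, *Gpr34*, *Aif1* and *Adgre1* were higher relative to *Csf1r* in every Pcp2-cre mouse, by 0.53, 0.93, 0.90 and 1.09, which 0.43% of all tested genes showed. Each of these 6 separations in counts had an exact two-sided permutation p of 0.10, the smallest possible, and 0.133 after Benjamini-Hochberg adjustment over the 8 ratios. In ratios of the deposited FPKM 5 of the 8 separated. *Adgre1* overlapped there, with a difference of 0.85 and an exact permutation p of 0.20, and *Gpr34* separated by 0.60. Without control mouse 1 the difference of *Adgre1* in counts was 0.71. With *Aif1* as the reference in place of *Csf1r*, *Cx3cr1*, *Gpr34* and *Adgre1* overlapped between genotypes. *Selplg* and *Olfml3* were lower relative to *Aif1* in every Pcp2-cre mouse, with differences of -1.08 and -0.81, as were *Tmem119*, *Siglech* and *Csf1r*. *Aif1* itself rose by 1.94 on the log2 scale, from 4, 4 and 7 counts in controls, and genes that rose less are lower relative to it. The shares of all tested genes that separated relative to *Aif1* or in ratios of FPKM were not computed. The share of the summed counts of the 9 genes that belonged to *Tmem119* was 6.60% to 6.99% in control mice and 3.13% to 3.72% in Pcp2-cre mice.

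**Figure D3:**
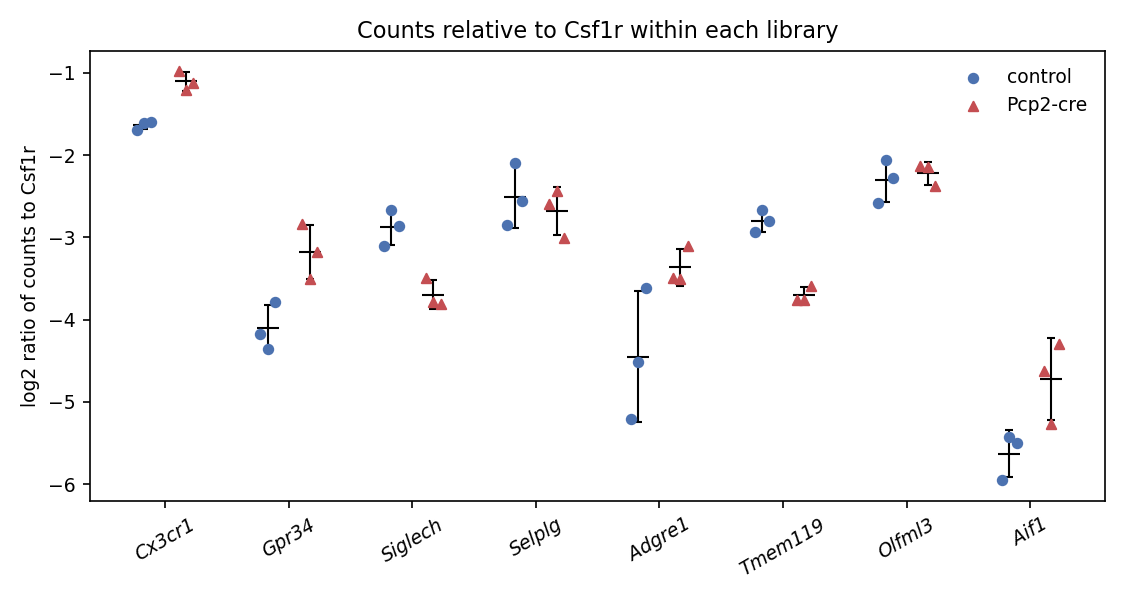
Log2 ratio of each gene's counts to those of *Csf1r* in the same library, for control mice (circles) and Pcp2-cre mice (triangles), with means and SD (3 mice each). The groups separate upward for *Cx3cr1*, *Gpr34*, *Adgre1* and *Aif1*, separate downward for *Siglech* and *Tmem119*, and overlap for *Selplg* and *Olfml3*, but *Adgre1* overlapped in ratios of FPKM and the pattern was different with *Aif1* as the reference.

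Levels of different genes were compared in the deposited FPKM values, fragments scaled to library size and transcript length. In control cerebella *Csf1r* was highest, at 4.81 ± 0.236 FPKM (SD, n = 3 mice), and separate from all others. It was followed by *Selplg* at 2.54 ± 0.581, *Cx3cr1* at 2.16 ± 0.275, *Siglech* at 1.74 ± 0.335 and *Tmem119* at 1.70 ± 0.124 FPKM, and each of these overlapped with its neighbour in that order. *Olfml3*, *Gpr34*, *Aif1* and *Adgre1* lay lower, from 0.998 down to 0.402 FPKM, and again each overlapped with the next. *Tmem119* and *Olfml3* were separate.

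In Pcp2-cre cerebella the order was different. *Csf1r* remained highest at 10.6 ± 0.215 FPKM. It was followed by *Cx3cr1* at 6.60 ± 0.205, *Selplg* at 4.77 ± 1.46 and *Gpr34* at 2.89 ± 0.299 FPKM (SD, n = 3 mice each). These genes were all separate from their neighbours, but some gaps were very narrow. The lowest *Cx3cr1* value was 6.37 FPKM and the highest *Selplg* value 6.36 FPKM. The lowest *Gpr34* value and the highest *Aif1* value were both 2.61 FPKM after rounding. *Aif1* at 2.26 ± 0.300 FPKM overlapped with *Olfml3* at 2.21 ± 0.176 FPKM. *Tmem119* at 2.00 ± 0.0492, *Siglech* at 1.89 ± 0.454 and *Adgre1* at 1.51 ± 0.288 FPKM came last, with overlap between neighbours. From control to Pcp2-cre cerebella *Siglech* thus moved from the fourth to the eighth place and *Tmem119* from the fifth to the seventh, while *Gpr34* moved from the seventh to the fourth.

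For the 7 called genes the genotypes did not overlap in CPM or in FPKM. The scales differed for the other pair. *Tmem119* was at 1.66, 1.60 and 1.84 FPKM in controls, against 2.04, 1.94 and 2.01 with Cre, without overlap and with a ratio of means of 1.18, whereas its CPM overlapped. *Siglech* was at 1.95, 1.92 and 1.35 FPKM in controls, against 1.71, 2.40 and 1.55 with Cre, which overlapped, whereas its CPM did not. On either scale all Pcp2-cre mice were above all controls for 8 of the 9 genes, beside 10.8% of all tested genes in CPM and 11.3% in FPKM. In CPM 0 of the 9 were below in all Pcp2-cre mice, beside 11.4%. The exact two-sided permutation p on FPKM was 0.10 for those 8 genes, the smallest possible, and 0.80 for *Siglech*.

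Promoter sequences from RefSeq were found for 4 of the 9 genes, *Siglech*, which was not called, and *Aif1*, *Cx3cr1* and *Olfml3*, which rose. They are shown to let the genes that rose be read beside 1 that did not, from 250 bases before the RefSeq start through the first 20 bases after it, 5′ to 3′ on the gene's own strand. The sequences were matched to GRCm39, on the forward strand for *Siglech* and the reverse strand for the other 3, and capitals mark the motifs found. The *Cx3cr1* window lies inside the gene's Gencode span, which ends at 119898945, so it belongs to a start within the gene. Sequence before the outermost *Cx3cr1* start was not searched.
Siglech chr7:55417682-55417951: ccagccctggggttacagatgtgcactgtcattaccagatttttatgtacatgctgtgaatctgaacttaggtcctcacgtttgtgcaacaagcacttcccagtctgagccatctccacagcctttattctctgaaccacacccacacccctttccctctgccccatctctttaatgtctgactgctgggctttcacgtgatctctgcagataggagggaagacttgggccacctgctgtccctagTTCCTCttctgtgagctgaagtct
Aif1 chr17:35395009-35395278: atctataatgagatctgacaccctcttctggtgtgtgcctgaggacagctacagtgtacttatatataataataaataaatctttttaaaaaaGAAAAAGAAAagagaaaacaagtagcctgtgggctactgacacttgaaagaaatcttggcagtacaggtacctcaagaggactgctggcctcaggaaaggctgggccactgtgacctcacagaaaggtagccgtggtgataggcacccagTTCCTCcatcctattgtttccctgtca
Cx3cr1 chr9:119897343-119897612: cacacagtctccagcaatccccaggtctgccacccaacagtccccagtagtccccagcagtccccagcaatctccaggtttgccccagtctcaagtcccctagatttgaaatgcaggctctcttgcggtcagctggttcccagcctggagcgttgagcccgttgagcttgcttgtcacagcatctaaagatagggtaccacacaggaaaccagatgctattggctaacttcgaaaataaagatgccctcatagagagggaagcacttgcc
Olfml3 chr3:103645298-103645567: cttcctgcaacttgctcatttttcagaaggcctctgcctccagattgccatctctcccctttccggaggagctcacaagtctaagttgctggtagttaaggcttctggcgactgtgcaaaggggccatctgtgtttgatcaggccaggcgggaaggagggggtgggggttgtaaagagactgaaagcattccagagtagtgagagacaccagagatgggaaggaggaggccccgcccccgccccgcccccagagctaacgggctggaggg
Windows of 300 bases, ending 50 bases after the start, were searched on both strands. GAGGAA, the core of the motif of the macrophage factor PU.1, was found on the reverse strand as TTCCTC at base -4 of *Siglech* and at base -7 of *Aif1*, counted back from the start, and was not found in *Cx3cr1* or *Olfml3*. Of 32851 RefSeq promoter windows 28.3% held it. The core of the interferon-stimulated response element was found once, at base -157 of *Aif1*, and 3.44% of windows held it. The composite element of a PU.1-type and an interferon regulatory factor site, which can overlap GAGGAA, was found in none of the 4 and in 2.72% of all windows. These are matches of letters only.

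The same comparison was made for 20 other homeostatic microglia genes. Of these 15 were tested, 7 were called upregulated and 0 downregulated, with a median of 0.64 on the log2 scale. *Fcrls*, an Fc receptor-like gene used as a microglial marker, had 33, 24 and 33 counts in controls, against 196, 214 and 207 with Cre, a log2 fold change of 2.89 that was larger than that of any of the 9 genes. *Tgfbr1*, a receptor of the TGF-beta signal that maintains microglial identity, had a log2 fold change of 0.78. *P2ry12*, the ADP receptor that guides microglial processes, had 42, 50 and 59 counts in controls, against 64, 49 and 57 with Cre. Its log2 difference was 0.28 with a 95% interval of -0.11 to 0.68 (edgeR adjusted p = 0.495), so it was not called, like *Tmem119* and *Siglech*. Several genes of this list, such as *Sparc*, *Cst3*, *Golm1*, *Mertk* and *Adgrg1*, are also expressed by other cerebellar cells, and none of these 5 was called. *Cst3* and *Adgrg1* passed the test at 0.37 and 0.26 (edgeR adjusted p = 2.47e-05 and 0.0244) but were under the fold-change threshold, and with no such threshold 9 of the 15 were higher. *Upk1b* had at most 3 counts in every mouse.

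Among 20 other genes shared by microglia and macrophages, 19 were tested and 18 called upregulated, and their median was 1.99 on the log2 scale. The exception was *Coro1a*, an actin regulator also found outside myeloid cells, at 0.15. *C1qa* and *C1qb*, subunits of complement C1q, had log2 fold changes of 2.10 and 1.99, and *Mpeg1*, which encodes perforin-2, had 2.75. *Spi1*, which encodes PU.1, had 10, 9 and 8 counts in controls, against 19, 29 and 20 with Cre, a log2 fold change of 1.42. This gene was named for its link to the motif above, after its values had been seen.

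Of 19 genes known to rise in disease-associated microglia all were tested and 14 called upregulated, and the median was 1.62 on the log2 scale. With no fold-change threshold all 19 were higher, beside 2.99% of all tested genes. *Lpl*, *Ctsd* and *Itgax* had the smallest p, with log2 fold changes of 3.55, 1.04 and 4.72. *Tyrobp* and *Cd68* are counted in this list and in the one before. *Cst7*, with no control above 1 count, was at least 17.8-fold higher with Cre against a floor of 3 counts per library, and setting it to that bound left the median at 1.62. These lists were not compared with the 9 genes by a test.

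**Figure D4:**
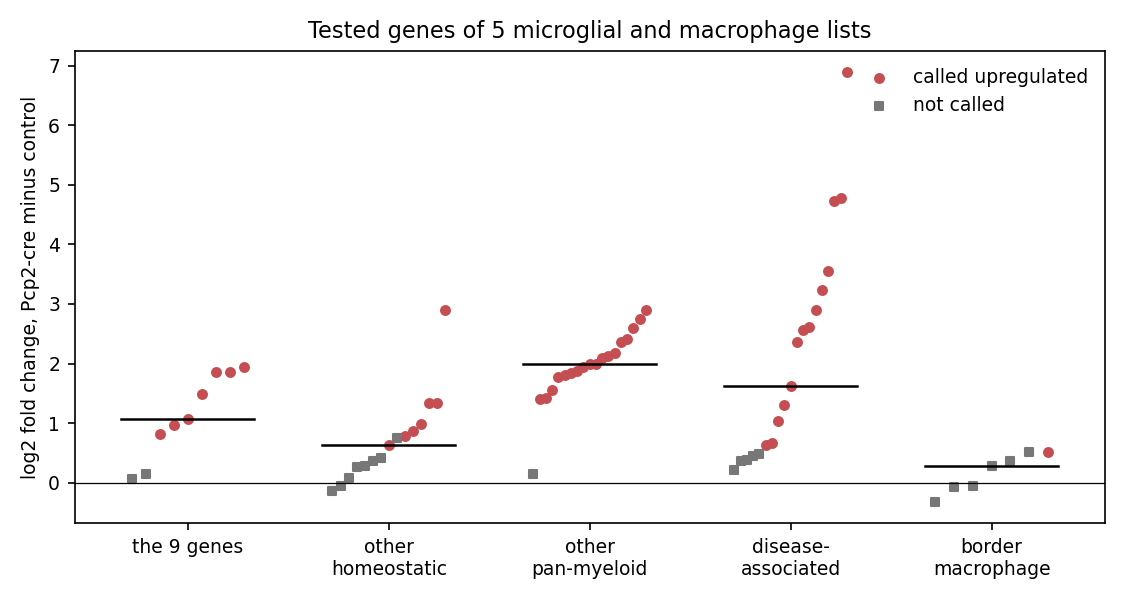
Log2 fold change between Pcp2-cre and control cerebella of each tested gene in 5 lists, with called genes as circles, other genes as squares and the list's median as a line. Medians were 1.06, 0.64, 1.99, 1.62 and 0.28 from left to right, and the top point, *Cst7*, is a fitted value for a gene at or under the floor in every control.

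The ligands and partners of the 9 gene products were examined by name. *Tyrobp*, the adaptor through which SIGLECH signals, had 16, 16 and 18 counts in controls, against 121, 110 and 114 with Cre, a rise of 2.89 ± 0.189 on the log2 scale (± standard error, edgeR adjusted p = 8.14e-10). The rise of this adaptor stood beside a *Siglech* level that was not called. *Csf1*, a ligand of CSF1R, had a log2 difference of 0.48 with an edgeR adjusted p of 0.00143, which is under the fold-change threshold. *Il34*, the other ligand, had 65, 44 and 68 counts in controls, against 54, 59 and 38 with Cre, with a log2 fold change of -0.12 and a 95% interval of -0.47 to 0.22. *Cx3cl1*, which encodes fractalkine, had a log2 fold change of -0.06 with an interval of -0.19 to 0.07. *Selp* and *Sele*, which encode selectins bound by PSGL-1, and *Hcst*, an adaptor related to TYROBP, had at most 3 counts in any mouse.

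Markers of other cells that can express macrophage genes were measured in the same libraries. Of 10 markers of border macrophages, the macrophages of the meninges and vessels, 7 were tested and 1 was called upregulated, *Stab1*, with a log2 fold change of 0.51. Their summed level was 30.5 to 33.7 CPM in control mice and 36.1 to 45.6 CPM in Pcp2-cre mice. *Mrc1*, which encodes the mannose receptor, had a log2 fold change of 0.36 (95% interval -0.06 to 0.78), and *Cd163*, a haemoglobin scavenger receptor gene, one of -0.06 (-0.59 to 0.47). The part of border macrophages in the rise of *Csf1r*, *Aif1* and *Adgre1* was not tested.

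Of 7 blood monocyte and neutrophil markers none passed the filter on low counts, and their summed level was 1.19 to 3.62 CPM in control mice and 1.48 to 4.87 CPM in Pcp2-cre mice. *Ccr2*, the chemokine receptor of recruited monocytes, had 3, 0 and 0 counts in controls, against 3, 3 and 3 with Cre. *Plac8* had at most 1 count and *Ly6g* 0 counts in any of the 6 mice. Of 10 lymphocyte markers none passed the filter, *Cd3d*, *Cd3g*, *Cd8a*, *Ms4a1* and *Nkg7* had at most 3 counts in every mouse, and the summed level was 0.744 to 1.49 CPM in control mice and 1.45 to 2.31 CPM in Pcp2-cre mice. *Trbc2*, a T cell receptor constant gene, had 0 counts in each control, against 3, 9 and 4 with Cre, and was singled out after its values had been seen. Of 6 Purkinje cell markers 5 were called downregulated, *Itpr1*, *Car8* and *Calb1* with the smallest p, and of 6 granule cell markers none was called. With no fold-change threshold all 6 Purkinje cell markers were lower and 1 granule cell marker was higher.

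The mean of the gene-centred log2 CPM of the 9 genes was -0.62, -0.57 and -0.35 in controls, against 0.51, 0.45 and 0.56 with Cre. Over the 6 mice the 5 genes outside all lists whose log2 CPM followed this mean most closely were *Gm30177*, *Ddah2*, *Ccl3*, *Kazald1* and *C4b*, with Pearson r between 0.995 and 0.9963 among 16865 genes ranked. The 6 points fall into the 2 genotypes, so this likeness rests mainly on the difference between them. It does not reflect the size of a change, which was a log2 fold change of 0.28 for *Kazald1* and 2.23 for *C4b*.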

How the data were processed

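Poly A-enriched RNA from the cerebella of 6 mice was sequenced as paired reads. Per the study's methods, trimming was followed by STAR alignment to GRCm39, and Gencode genes were quantified by featureCounts and StringTie. The versions, the Gencode release and the use of strand are not given in the sources used here. The deposited tables hold the authors' raw counts, not normalized, for 53746 genes, and the authors' FPKM values for 55005 genes. Total counts of 6733178 to 10178218 per mouse limit the precision of genes with few reads. Groups, sex and mouse number came from the labels.

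The quasi-likelihood test of edgeR 4.0.16, run in R 4.3.3 after filterByExpr and TMM scaling, kept 16961 genes and all 9 genes described here, with Benjamini-Hochberg adjustment over all tested genes. The filter asked for enough counts in as many mice as a group holds, so genes low in controls could pass through Pcp2-cre mice alone. Standard errors and 95% intervals were derived from the F statistic. CPM was scaled with the TMM factors. Ratios and FPKM were compared with two-sided exact permutation tests over mice (scipy 1.17.1), after 0.5 was added to counts for ratios. Alternatives used DESeq2 1.42.0, limma 3.58.1 on log2(FPKM + 1) and log2(FPKM + 0.1), other filters, covariates and thresholds, and each mouse left out. Ratios were also taken from FPKM and with *Aif1* as the reference. The scripts were tested on simulated counts. Positions came from Gencode M39 on GRCm39, and promoter windows from the RefSeq table. The genes, lists and rules were chosen with earlier results of these data known. The text names the 9 genes, all ligands and partners, the 3 called genes with the smallest p in each direction in the other lists, coding neighbours, list genes at or under the floor, and the 5 genes most like the mean of the 9. *P2ry12*, *Coro1a*, *Cst7*, *Mrc1*, *Cd163* and *Ccr2* and the genes named for expression in other cells were added after their values had been seen. A few genes that this rule names are not reported here.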

Additional observations from a re-analysis of the deposited data

How the results depend on the processing

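All 7 calls were kept with DESeq2, with its size factors in edgeR, without a count filter, and with sex or the choroid plexus score as a covariate. Of the 9 genes 0 was called downregulated under any alternative. With at least 10 counts required in every mouse *Gpr34*, *Aif1* and *Adgre1* were not tested. Then 4 of the 9 genes were called and the median was 0.89, beside 160 upregulated of all 15755 genes tested. With limma on log2(FPKM + 0.1) 4 were called and the median was 1.12, and *Selplg* (adjusted p = 0.206), *Aif1* (0.0549) and *Adgre1* (0.0502) were lost. With log2(FPKM + 1) 6 were called and the median was 0.84. The median was 0.98 with the choroid plexus score and 0.99 without control mice 1 and 2, an alternative chosen after seeing the data. With each mouse left out in turn 6 to 7 were called, beside 183 to 245 upregulated over all genes, and the median was 1.0 to 1.12. The log2 difference of *Tmem119* then ran from -0.01 without Pcp2-cre mouse 3 to 0.12. With a replicate block 7 of the 9 genes were called, beside 229 over all genes, and the median was 1.05. Mouse numbers were not taken as pairs in the main test. Deviations of same-numbered mice correlated at 0.0329, 0.0495 and 0.145, beside -0.1 to 0.0669 for mice with different numbers. The highest value, 0.145, was that of the female pair. With 3 mice per genotype these values cannot decide whether the mice were paired. Over all genes the main edgeR test described here called 233 upregulated and 304 downregulated. DESeq2 called 150 upregulated (231 downregulated). Limma called 144 (167) with log2(FPKM + 0.1) and 126 (155) with log2(FPKM + 1). In edgeR 507 (805) were called with no fold threshold and 142 (94) at a log2 change of 1 or more. At that threshold 3 of the other homeostatic genes were called, and the share of calls that were upregulated was 60.2% instead of 43.4%. The causes of these differences were not tested. Counts of 4 to 48 in controls limit the precision for *Aif1*, *Adgre1*, *Gpr34*, *Siglech* and *Tmem119*.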
